A study of Arabidopsis thaliana with 36 samples.

Results

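Early lateral root regulators are described here through 8 genes, chosen by locus from the 37973 rows of the count table. They are *PUCHI* (AT5G18560), *GATA23* (AT5G26930), *LBD16* (AT2G42430), *LBD17* (AT2G42440, listed in the table as *ASL15*), *LBD18* (AT2G45420), *LBD29* (AT3G58190), *LBD33* (AT5G06080), and *MAKR4* (AT2G39370). RNAseq was carried out on root segments of Arabidopsis seedlings gravistimulated at 4 days of age under continuous light, which makes a lateral root form at the outer side of the bend. Bends were taken from WT plants of the Col-0 accession and from *puchi-1* mutants at 12, 18, 24, 30, and 36 hours post-gravistimulation (hpg), together with ‘No LR’ segments of mature root between the bend and the shoot, with 3 libraries, called biological replicates in the paper, in each of the 12 groups. In *puchi-1*, the second and the third ‘No LR’ library carry the same name and date in their titles, 1 of them with the word bis added, so both may come from a single sample. Their counts differed beyond sampling noise (chi-square of 67.8 per gene), which cannot tell separate samples from separate libraries of 1 sample. The paper takes the ‘No LR’ segments at 12 hpg, whereas the sample labels give 9 h. Every bend replicate pooled more than 400 seedlings, and *puchi-1* was the only mutant line used for RNAseq. What its lesion does to the transcript is not given in the sources used here, and counts over the whole gene do not show whether the RNA is intact.

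Lateral roots of Arabidopsis arise from pericycle cells next to the xylem poles. Auxin removes the Aux/IAA repressor SLR/IAA14, the response factors ARF7 and ARF19 are thereby freed, and these activate *LBD16* and *LBD29*, which encode LOB-domain transcription factors needed for the first asymmetric divisions of the founder cells. *LBD18* acts in the same pathway in initiation and emergence, and its protein pairs with LBD33 on the promoter of the cell cycle gene *E2FA*. *LBD17* belongs to the same clade and promotes callus formation when overexpressed. *GATA23* encodes a GATA factor that marks and specifies founder cells before they divide, *MAKR4* encodes a membrane-associated kinase regulator needed to turn prebranch sites into primordia, and *PUCHI* encodes an AP2/ERF factor that restrains divisions at the flanks of the primordium.

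The 8 genes lie on chromosomes 2, 3, and 5 of the TAIR10.1 genome, and no annotated gene overlaps any of them. *PUCHI* spans chr5:6164526-6166040 on the minus strand and, like *MAKR4* at chr2:16443996-16445408 (minus), has a single exon. *GATA23* is at chr5:9479424-9480200 (plus), *LBD33* at chr5:1830671-1831467 (minus), *LBD18* at chr2:18718348-18720729 (plus), and *LBD29* at chr3:21548484-21549572 (minus), each with 2 exons. *LBD16* (chr2:17663353-17665337, plus) and *LBD17* (chr2:17668701-17669836, minus), also with 2 exons each, are neighbours whose 3′ ends face each other across 3363 bases with no gene between them. Exonic windows of 100 bases were searched in the genome for near copies that could share reads. No window of any of the 8 genes matched elsewhere with 94 or more identical bases, and the closest match was 90 of 100 bases, for *LBD17*.

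As several of these genes act downstream of auxin, the sequence TGTCTC, the core of the auxin response element bound by ARFs, was located on both strands in the 1000 bases before each annotated gene start. Every one of the 8 genes held it, against 39.6% of 27443 protein-coding genes, and in the nearest 250 bases *PUCHI* and *LBD33* held it, 2 of 8 against 10.9% of all genes. The site nearest to each start is shown in a window of 30 bases read 5′ to 3′ along the gene’s strand, with the match in capitals (GAGACA where it lies on the other strand).
PUCHI: tatcaagctcatTGTCTCtctatttataac
GATA23: gcttcattccttTGTCTCtgtcttcatgtg
LBD16: tccattattgatTGTCTCcttagaatccaa
LBD17: caatgtctccgtTGTCTCtacaatattttt
LBD18: atacgcgtggagGAGACAttgaggaagcac
LBD29: atgttgtagtttGAGACAgaataatgatga
LBD33: aaaaaccaacgtgattTGTCTCaatctaac
MAKR4: tattctaaacttTGTCTCcctattcgttct

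These windows are chr5:6166045-6166074 for *PUCHI*, chr5:9479148-9479177 for *GATA23*, chr2:17662667-17662696 for *LBD16*, chr2:17670470-17670499 for *LBD17*, chr2:18717373-18717402 for *LBD18*, chr3:21550156-21550185 for *LBD29*, chr5:1831468-1831497 for *LBD33*, and chr2:16445772-16445801 for *MAKR4*. The match began 22 bases before the start of *PUCHI* and 14 before that of *LBD33*, but 963 before that of *LBD18*. *LBD17*, *LBD33*, and *MAKR4* each held a second copy, at 660, 291, and 505 bases before the start. Of 2 other sequences searched on both strands, TGTCGG, which ARFs also bind, was found in the 1000 bases of 1 of the 8 genes (*GATA23*, against 14.6% of all genes). GCCGCC, the GCC box of ERF proteins, was found in 0 of 8, against 8.44%. A match says only that the letters are there.

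**Figure D1:**
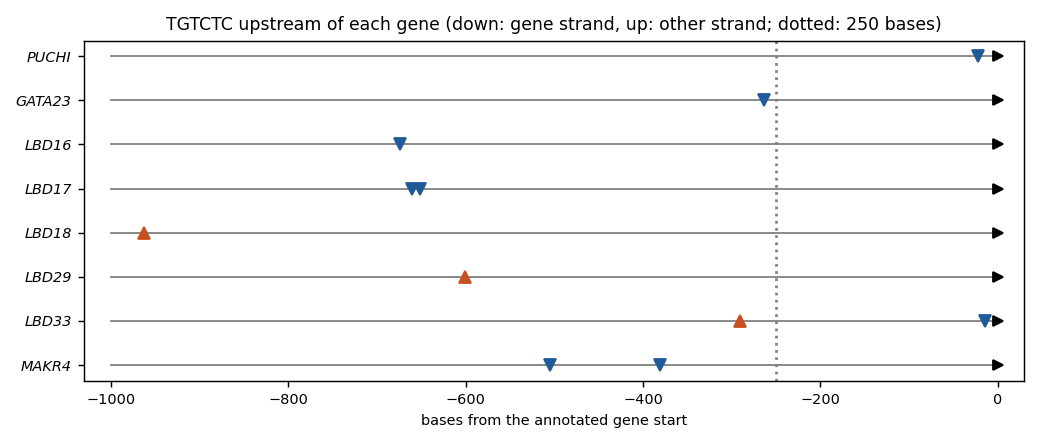
Position of TGTCTC in the 1000 bases before each of the 8 genes, as bases from the annotated start (arrowhead at 0), with downward triangles for matches on the gene’s strand and upward ones for the other strand. All 8 genes hold at least 1 match, and those of *PUCHI* (22 bases) and *LBD33* (14 bases) lie closest to the start.

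Among the 28 pairs of 250-base promoters, that of *LBD17* and *LBD29* aligned best by far (local alignment score 57, against 24 for the next pair), with 120 identical bases in 170 alignment columns (70.6%). The aligned stretches are shown because the RNA levels of these 2 genes, given below, followed different courses. They are chr2:17669850-17670001 for *LBD17* and chr3:21549620-21549784 for *LBD29*, both on the minus strand of TAIR10.1, read 5′ to 3′ along the gene, and capitals mark bases identical in the alignment.
LBD17: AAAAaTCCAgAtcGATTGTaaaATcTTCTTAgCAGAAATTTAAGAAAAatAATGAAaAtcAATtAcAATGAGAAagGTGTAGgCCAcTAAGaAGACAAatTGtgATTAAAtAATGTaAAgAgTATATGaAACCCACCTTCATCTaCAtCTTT
LBD29: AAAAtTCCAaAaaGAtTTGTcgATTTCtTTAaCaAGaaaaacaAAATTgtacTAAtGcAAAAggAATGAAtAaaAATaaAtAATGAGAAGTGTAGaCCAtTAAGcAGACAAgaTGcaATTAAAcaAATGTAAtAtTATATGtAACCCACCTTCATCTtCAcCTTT

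The longest unbroken stretch they share, AACCCACCTTCATCT, has 15 bases and begins 36 bases before the start of *LBD17* and 70 before that of *LBD29*. Of 27443 protein-coding genes, 2 held it on either strand within 250 bases of the start, these being the same pair.

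Total counts per library ranged from 31.7 to 121.6 M reads, with a median of 48.1 M, and levels are given as counts in each 1000000 (CPM) scaled by TMM, or per kilobase of exon (RPKM) where genes are compared with each other. Markers of other tissues were present in the libraries, and no marker list was at 0 in any group. The summed CPM of 7 root hair genes and of 7 Casparian strip genes of the endodermis were highest in the 12 hpg bends of both genotypes, at 386 to 1040 and 531 to 963, and the 36 hpg sums were 23.7 to 117 and 23.9 to 57.4. In the ‘No LR’ segments, replicate 1 stood apart from the other two in both genotypes. Its root hair sum was 542 CPM in the WT and 486 in *puchi-1*, against 26.8 to 48.6 in replicates 2 and 3, and its Casparian strip sum was 814 and 722, against 17.6 to 40.0. Both replicate 1 libraries lay near the 12 hpg bends in these 2 lists. The share of these differences in the results below was not tested, and tests that use the ‘No LR’ segments are given with and without this pair of libraries. Some marker sums also differed between genotypes. Root hair sums were higher in all *puchi-1* libraries at 12 hpg (717 to 1040 CPM against 386 to 639). The 6 genes of dividing cells summed higher at 24 hpg (163 to 164 CPM against 144 to 156) and lower at 36 hpg (114 to 149 against 156 to 166), with overlap at the other times. Sums of 3 phloem genes were lower at 24 hpg (49.0 to 55.3 CPM against 79.3 to 102) and 30 hpg (79.1 to 103 against 112 to 133), and those of 3 photosynthesis genes were lower at 36 hpg (33.0 to 54.6 against 63.5 to 82.2). Over the mean of the bends, 1 gene of these lists was called, the phloem sucrose transporter gene *SUC2* (log2FC -0.42, adjusted p = 0.0372). The part of these lists in the genotype differences of the 8 genes was not tested. In bulk segments, a change in the number of cells that express a gene and a change in RNA per cell cannot be told apart.

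The gene mutated in *puchi-1* was examined first. *PUCHI* reads were not lost in the mutant: all 36 libraries held them, 227 to 2399 per library. In the WT, *PUCHI* stood at 18.4, 20.2, and 14.1 CPM in the 3 replicates at 12 hpg, 15.9, 14.5, and 19.7 at 18 hpg, and 9.80, 10.8, and 11.7 at 36 hpg. In *puchi-1* it stood at 24.4, 22.5, and 25.2 CPM at 12 hpg, 33.5, 36.7, and 40.6 at 18 hpg, and 18.0, 15.6, and 14.6 at 36 hpg. At each of the 5 bend time points all 3 *puchi-1* libraries were above all 3 of the WT. The level in the WT declined from 12 hpg, whereas in *puchi-1* the mean was highest at 18 hpg (36.9 ± 3.58 CPM, SD, n = 3). Over the 5 bend time points, *PUCHI* was up-regulated in *puchi-1* by a log2FC of 0.83 ± 0.09 (SE; adjusted p = 1.61e-07), and the call held without each library in turn. It was called at 18 hpg (log2FC 1.15, adjusted p = 0.00268), 24 hpg (0.99, adjusted p = 0.00799), and 30 hpg (0.97, adjusted p = 0.0119), though leaving out WT replicate 3 ended the 24 hpg call (adjusted p = 0.0738), and the 30 hpg call was lost without WT replicate 1, WT replicate 2, or *puchi-1* replicate 3 (adjusted p = 0.0555 to 0.126).

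**Figure D2:**
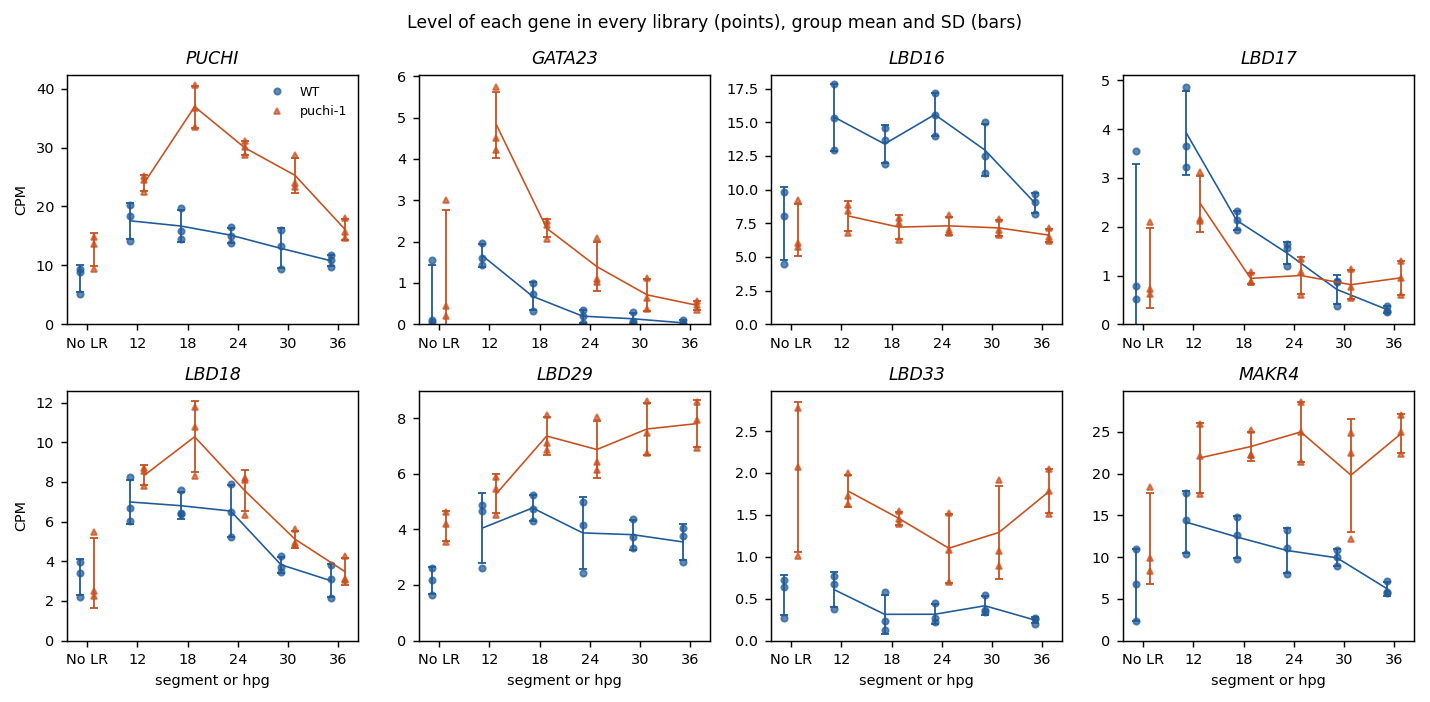
CPM (y-axis) of the 8 genes in ‘No LR’ segments and in bends at 12 to 36 hpg (x-axis) in the WT (blue circles) and *puchi-1* (orange triangles), with each library as a point and bars for the mean ± SD of 3 replicates. *LBD16* lies lower in *puchi-1* bends than in WT bends at each time point, while *PUCHI*, *GATA23*, and *LBD33* lie higher at each.

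Of the 8 genes, 6 differed between genotypes over the mean of the 5 bend time points, 5 being up-regulated in *puchi-1* and *LBD16* down-regulated, where 10.9% of the 25889 genes tested were called (5.57% higher and 5.32% lower). The median log2FC was 0.81 for the 8 genes and -0.01 for all genes. The 6 calls, *PUCHI* included, held without each of the 30 bend libraries in turn and under all 8 other settings tried. The paper shows *MAKR4*, *GATA23*, *LBD16*, *LBD18*, and *LBD29* in a heat map drawn from these same libraries, so their directions here are not independent evidence. Its Wald tests mark *GATA23*, *MAKR4*, and *LBD16* at all 5 bend time points at its strictest level of p. In bends it marks *LBD29* from 18 hpg onward and *LBD18* at 18 and 30 hpg. The caption does not say whether those p-values are adjusted, and several of these time points were not called here. At single time points, where each comparison rests on 6 libraries, fewer genes were called: 0 at 12 hpg (0.0734% of all genes called), 3 at 18 hpg (0.421%), 2 at 24 hpg (0.695%), 3 at 30 hpg (0.498%), and 3 at 36 hpg (0.954%). At 24 hpg the genotypes share no month in their titles, and replicates 1 and 3 of *puchi-1* name none. Genotype and the month in the title therefore cannot be told apart at 24 hpg. What the dates in the titles stand for is not stated. At 12 hpg the titles name June, July, and August for the WT and March, June, and July for *puchi-1*. The title of WT replicate 1 at 12 hpg carries a later year than every other title that gives one. Months named in the titles pair the genotypes at 18 hpg, although only the July pair names the same day. With that pairing as a replicate block in a fit of those 6 libraries, 5 of the 8 were called. *GATA23* (log2FC 1.85, adjusted p = 0.0429) and *MAKR4* (0.93, adjusted p = 0.00595) were added. By DESeq2 the count at 12 hpg was 1 (*LBD16*), and 3 of the 8 genes had an unadjusted p under 0.05 there in edgeR. The libraries of the genotypes did not overlap for 5 of the 8 genes at 12 hpg (12.0% of all genes), 8 at 18 hpg (19.7%), 6 at 24 hpg (25.9%), 7 at 30 hpg (14.8%), and 7 at 36 hpg (20.7%).

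**Figure D3:**
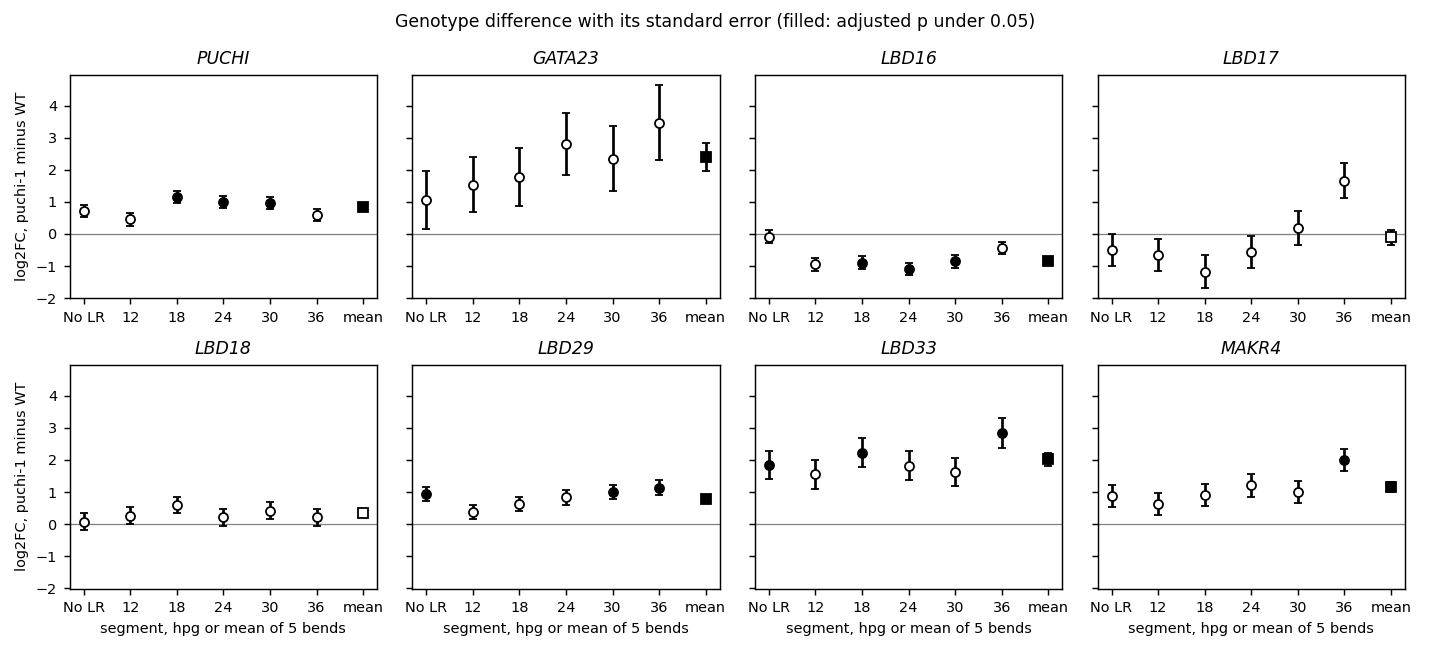
Log2FC of *puchi-1* minus the WT (y-axis) with its standard error for each gene in ‘No LR’ segments, at each time point, and over the mean of the 5 bend time points (squares), with filled symbols for an adjusted p under 0.05. The mean over bends was called for 6 genes, from -0.84 for *LBD16* to 2.39 for *GATA23*, and was -0.11 for *LBD17* and 0.34 for *LBD18*, which were not called.

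*LBD16*, the ARF7 and ARF19 target that acts in founder cell division, was the only one of the 8 called lower in *puchi-1* over the bends. Its levels in WT bends were 15.3, 17.9, and 12.9 CPM at 12 hpg, 13.7, 11.9, and 14.6 at 18 hpg, and 17.2, 14, and 15.5 at 24 hpg. The *puchi-1* bends held 8.44, 6.79, and 8.89 CPM at 12 hpg, 7.55, 6.23, and 7.87 at 18 hpg, and 6.81, 7.03, and 8.08 at 24 hpg. All *puchi-1* libraries lay below all WT libraries at each of the 5 time points, and the 15 *puchi-1* bend libraries stayed between 6.21 and 8.89 CPM while those of the WT ranged from 8.21 to 17.9. The log2FC over the bends was -0.84 ± 0.09 (adjusted p = 2.11e-07). Per time point it came to -0.94 at 12 hpg (adjusted p = 0.0707), -0.89 at 18 hpg (adjusted p = 0.0378), -1.09 at 24 hpg (adjusted p = 0.00499), -0.85 at 30 hpg (adjusted p = 0.0438), and -0.44 at 36 hpg (adjusted p = 0.419). At 12 hpg *LBD16* was called by DESeq2 (adjusted p = 0.00348), in the fit of the bends alone (adjusted p = 0.000951), and with the month covariate (adjusted p = 0.00421). It was not called there in the other settings, nor in any fit without 1 library. The 24 hpg call held without each library in turn, whereas those at 18 and 30 hpg were lost without any 1 of their 6 libraries (adjusted p = 0.0642 to 0.191 and 0.0615 to 0.284).

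In ‘No LR’ segments the 3 WT libraries held *LBD16* at 9.82, 8.07, and 4.50 CPM and those of *puchi-1* at 9.23, 5.76, and 6.06, so the genotypes overlapped there. From these segments to the 12 hpg bends it was up-regulated in the WT (log2FC 1.04 ± 0.20, adjusted p = 0.00303). In *puchi-1* the same step gave 0.20 ± 0.20 (adjusted p = 0.484, 95% interval -0.21 to 0.61). Whether the 2 steps differ was not tested. Without both replicate 1 libraries, *LBD16* was also called in the WT (log2FC 1.24, adjusted p = 1.68e-05) and not in *puchi-1* (0.39, adjusted p = 0.0899).

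*LBD17*, the neighbour of *LBD16*, had another course. In the WT it stood at 3.66, 4.87, and 3.23 CPM at 12 hpg, 2.32, 1.93, and 2.15 at 18 hpg, and 0.256, 0.381, and 0.271 at 36 hpg. In *puchi-1* it stood at 3.13, 2.16, and 2.12 CPM at 12 hpg, 0.869, 1.08, and 0.877 at 18 hpg, and 1.31, 0.606, and 0.950 at 36 hpg. The *puchi-1* libraries were thus all below those of the WT at 12 and 18 hpg and all above them at 36 hpg, and overlapped with them at 24 and 30 hpg. A log2FC of -0.66 was found at 12 hpg (adjusted p = 0.821), -1.18 at 18 hpg (adjusted p = 0.436), and 1.66 at 36 hpg (adjusted p = 0.188), and no time point was called. The F test of whether the genotype difference varied over the bends gave an unadjusted p of 0.00812 and an adjusted p of 0.952, and the change from 12 to 36 hpg differed by a log2FC of 2.32 ± 0.73 (adjusted p = 0.522). Of all genes, 0.0155% were called by the F test and 0.027% for that change, and 0 of the 8 by either. In the fit of the 30 bend libraries alone, without the ‘No LR’ segments, *LBD17* was called in both (adjusted p = 0.0362 and 0.0347), and also at 36 hpg (log2FC 1.67, adjusted p = 0.0094).

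*LBD29*, the other direct target of ARF7 and ARF19 in this group, was up-regulated in *puchi-1*. WT bends held 4.87, 4.67, and 2.62 CPM at 12 hpg, 3.32, 4.38, and 3.74 at 30 hpg, and 4.06, 3.77, and 2.82 at 36 hpg. Bends of *puchi-1* held 5.47, 4.52, and 5.88 CPM at 12 hpg, 7.46, 8.64, and 6.75 at 30 hpg, and 8.57, 7.94, and 6.92 at 36 hpg. The libraries overlapped at 12 hpg, and from 18 hpg onward those of *puchi-1* were all higher. The log2FC over the bends was 0.79 ± 0.10 (adjusted p = 4.87e-06), with 0.38 at 12 hpg (adjusted p = 0.747), 1.0 at 30 hpg (adjusted p = 0.0352), and 1.14 at 36 hpg (adjusted p = 0.00843). The 36 hpg call was lost without WT replicate 3 or *puchi-1* replicate 1 (adjusted p = 0.0594 to 0.0647), and that at 30 hpg without any 1 of the 6 libraries (adjusted p = 0.0744 to 0.238). *LBD29* was also the only gene of the 8 that was not called lower at 36 than at 12 hpg in the WT (log2FC -0.19, adjusted p = 0.538, 95% interval -0.66 to 0.28).

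*LBD18* had the smallest genotype difference among the genes that were higher in *puchi-1* on average. WT levels were 7.57, 6.40, and 6.44 CPM at 18 hpg, against 8.29, 11.8, and 10.8 for *puchi-1*, and 2.14, 3.09, and 3.81 CPM at 36 hpg, against 4.26, 3.03, and 3.12. The libraries did not overlap at 18 and 30 hpg and overlapped at 12, 24, and 36 hpg. Over the bends the log2FC was 0.34 ± 0.12 (adjusted p = 0.0578), which missed the threshold, with a 95% interval of 0.10 to 0.57. The difference was called by DESeq2 (adjusted p = 0.0337), in the fit of the bends alone (adjusted p = 0.0075), and without any 1 of 4 libraries (adjusted p = 0.0399 to 0.05).

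*LBD33*, whose protein pairs with LBD18, was expressed at a low level but was higher in every *puchi-1* library than in any WT library of the same time point. The 15 WT bend libraries held 6 to 34 reads, or 0.131 to 0.774 CPM with a median of 0.340, and the 15 of *puchi-1* held 31 to 229 reads, or 0.704 to 2.04 CPM with a median of 1.53. At 36 hpg the values were 0.274, 0.254, and 0.203 CPM for the WT, below the 2.04, 1.52, and 1.78 CPM of *puchi-1*. The log2FC was 2.02 ± 0.20 over the bends (adjusted p = 8.69e-08), 2.85 ± 0.47 at 36 hpg (adjusted p = 0.0011), and 2.23 ± 0.46 at 18 hpg (adjusted p = 0.0189), with 1.82 at 24 hpg just short of the threshold (adjusted p = 0.0519). At 24 hpg it was called by DESeq2 (adjusted p = 0.00526), in the bends alone (0.0134), with a replicate block (0.0351), and with filterByExpr (0.044). At 30 hpg (main fit 1.63, adjusted p = 0.133) DESeq2 (0.028), the bends alone (0.0405), and the month covariate (0.019) called it. The other settings called neither. The 36 hpg call held without each library in turn, whereas that at 18 hpg was lost without any 1 of the 6 except WT replicate 1, without which the log2FC was 2.98 (adjusted p = 0.0589 to 0.169 without the others), and in the fit of the 18 hpg libraries alone (adjusted p = 0.157), where it held with a replicate block (adjusted p = 0.0371).

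*GATA23*, the marker of founder cell identity, fell steeply with time in both genotypes and was higher in *puchi-1*. In the WT it stood at 1.60, 1.96, and 1.43 CPM at 12 hpg (61 to 86 reads), 0.0413, 0.351, and 0.201 at 24 hpg, and 0.110, 0, and 0 at 36 hpg, where the 3 libraries held 6, 0, and 0 reads. In *puchi-1* it stood at 5.74, 4.22, and 4.51 CPM at 12 hpg (138 to 253 reads), 1.02, 2.08, and 1.09 at 24 hpg, and 0.465, 0.343, and 0.568 at 36 hpg (17 to 73 reads). A count of 0 allows up to 3 reads, which is 0.0635 and 0.0677 CPM in these 2 WT libraries, still below each *puchi-1* library. All *puchi-1* libraries were above all WT libraries at each of the 5 time points, and the log2FC over the bends was 2.39 ± 0.44 (adjusted p = 0.000728). Without WT 36 hpg replicate 1, the 1 WT library of that time with reads, the fit gave 3.22 (adjusted p = 0.000445), a value that depends on how counts of 0 are fitted. No single time point was called in the main edgeR fit, from a log2FC of 1.54 at 12 hpg (adjusted p = 0.733) to 3.47 ± 1.18 at 36 hpg (adjusted p = 0.214). At 36 hpg *GATA23* was called by DESeq2 (3.57, adjusted p = 0.0398) and with the month covariate (4.28, adjusted p = 0.0354). All 3 of these fits include the ‘No LR’ libraries.

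Those ‘No LR’ libraries spread widely for *GATA23*, with 1.56, 0.0583, and 0.114 CPM for the WT against 3.00, 0.448, and 0.195 for *puchi-1*. In both genotypes the high value is that of replicate 1, the library with root hair and Casparian strip sums near those of the 12 hpg bends. The fit shares one spread per gene over all 12 groups. In the fit of the bends alone, *GATA23* was called at 24 hpg (adjusted p = 0.0146) and 36 hpg (adjusted p = 0.0167), and not at 12, 18, or 30 hpg (adjusted p = 0.106 to 0.272).

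*MAKR4* was up-regulated in *puchi-1*, and most so at the last time point. In the WT it declined from 17.7, 14.4, and 10.4 CPM at 12 hpg to 7.19, 5.78, and 5.64 at 36 hpg. In *puchi-1* it stood at 26, 22.1, and 17.6 CPM at 12 hpg and 22.3, 25, and 27.1 at 36 hpg, and over all 15 bend libraries it ranged from 17.6 to 28.6 apart from 30 hpg replicate 3 at 12.1. The genotypes overlapped at 12 hpg and did not at 18 to 36 hpg. The log2FC was 1.15 ± 0.15 over the bends (adjusted p = 1.12e-05), 0.63 at 12 hpg (adjusted p = 0.717), and 2.00 ± 0.35 at 36 hpg (adjusted p = 0.00278), and the 36 hpg call held without each library in turn. *MAKR4* was not called at 18, 24, or 30 hpg (adjusted p = 0.373, 0.111, and 0.427), but was in the bends alone (0.0457, 0.0038, and 0.0262). DESeq2 (0.0309) and the replicate block (0.0369) called it at 24 hpg, and the month covariate at 30 hpg (0.0138). Apart from the block fit of 18 hpg above, the other settings did not. The change from 12 to 36 hpg differed between genotypes by a log2FC of 1.37 ± 0.49, which missed the threshold (adjusted p = 0.643).

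Next, the start of the response was examined in the 12 hpg bends against ‘No LR’ segments. In the WT, 4 of the 8 genes were up-regulated, *PUCHI* (log2FC 1.18, adjusted p = 0.000898), *LBD16* (1.04, adjusted p = 0.00303), *LBD18* (1.13, adjusted p = 0.015), and *LBD29* (0.91, adjusted p = 0.0246), where 4.17% of all genes were called, and 0.919% higher. In *puchi-1*, 2 of the 8 were, *PUCHI* (0.92, adjusted p = 0.00149) and *LBD18* (1.30, adjusted p = 0.00111), where 24.3% of all genes were called and 11.2% higher, so this count is near the background. *MAKR4* missed the threshold in either genotype, with 1.09 for the WT (adjusted p = 0.0715) and 0.84 for the mutant (adjusted p = 0.0716), and *LBD29* gave 0.36 in *puchi-1* (adjusted p = 0.247). Without both replicate 1 libraries *MAKR4* was called in both (1.59, adjusted p = 0.000616, and 1.21, adjusted p = 0.00354), as were *GATA23* (4.21, adjusted p = 0.000588, and 3.88, adjusted p = 0.000231) and *LBD17* (2.53, adjusted p = 3.7e-05, and 1.82, adjusted p = 0.000575). The counts were then 7 of 8 in the WT and 5 of 8 in *puchi-1*, and in a fit of the compared groups alone they were 0 and 0. The WT call of *LBD18* was lost without ‘No LR’ replicate 3 or 12 hpg replicate 1 (adjusted p = 0.0912 to 0.214), and that of *LBD29* without ‘No LR’ replicate 2 or 3 or 12 hpg replicate 1 or 2 (adjusted p = 0.0676 to 0.275).

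**Figure D4:**
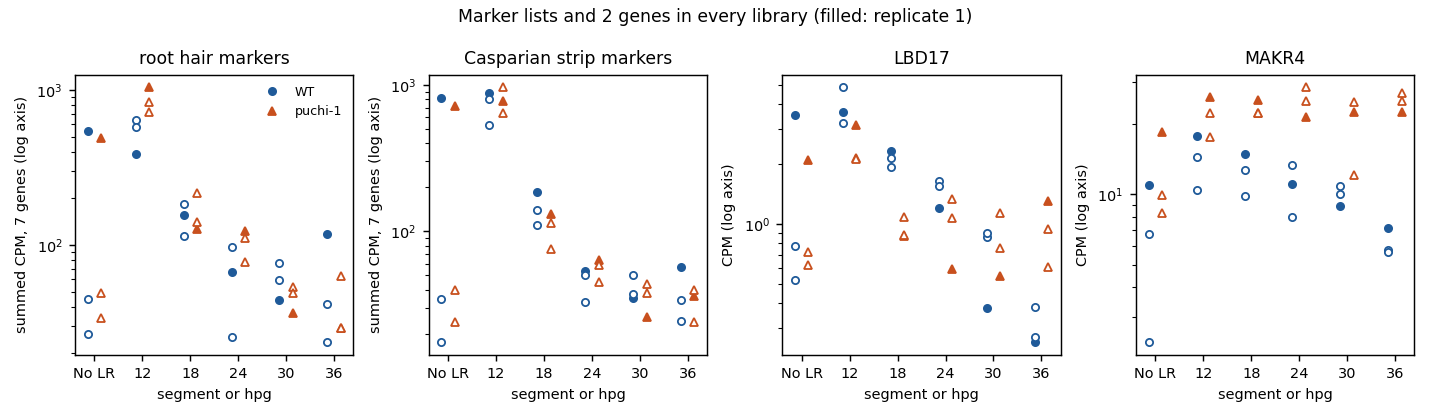
Summed CPM of 7 root hair and 7 Casparian strip markers, and CPM of *LBD17* and *MAKR4* (y-axes, log scale), in each library of ‘No LR’ segments and bends at 12 to 36 hpg (x-axis), with WT as blue circles, *puchi-1* as orange triangles, and replicate 1 filled. In ‘No LR’ segments replicate 1 of both genotypes lies at 486 and 542 CPM for root hairs while the other replicates lie at 26.8 to 48.6, and within each genotype it is also the highest for *LBD17* and *MAKR4*.

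In the ‘No LR’ segments themselves, *LBD29* and *LBD33* were up-regulated in *puchi-1*, 2 of the 8 genes where 1.06% of all genes were called and 0.406% higher. *LBD29* stood at 2.61, 2.2, and 1.64 CPM in the WT against 4.64, 4.19, and 3.56 for *puchi-1* (log2FC 0.94 ± 0.23, adjusted p = 0.0413). *LBD33* stood at 0.723, 0.272, and 0.636 CPM in the WT against 2.78, 2.07, and 1.0 for *puchi-1* (log2FC 1.84 ± 0.44, adjusted p = 0.0373). *PUCHI* was also higher in all 3 *puchi-1* libraries (13.7, 9.47, and 14.9 CPM against 9.33, 8.80, and 5.16), with a log2FC of 0.71 that missed the threshold (adjusted p = 0.0692, and 0.0686 without both replicate 1 libraries). *PUCHI* was called there by DESeq2 (adjusted p = 0.017), with filterByExpr (0.0489), with the month covariate (0.0405), and without WT replicate 1 (0.0426), but not in the other settings. In all, 3 of the 8 genes did not overlap between genotypes, where 9.12% of all genes did not. Without both replicate 1 libraries neither gene was called (adjusted p = 0.0553 for *LBD29* and 0.0879 for *LBD33*), nor with *puchi-1* replicates 2 and 3 summed as 1 sample (adjusted p = 0.108 and 0.0819). Leaving out WT replicate 2 or 3 or *puchi-1* replicate 1 or 2 also ended the call of *LBD29* (adjusted p = 0.0516 to 0.138), and leaving out WT replicate 2 or *puchi-1* replicate 1 or 2 that of *LBD33* (adjusted p = 0.0605 to 0.142).

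Over the time course, 7 of the 8 genes fell from 12 to 36 hpg in the WT, where 36.2% of all genes were called and 17.3% lower. The log2FC ranged from -0.70 for *PUCHI* (adjusted p = 0.00589) to -3.69 for *LBD17* (adjusted p = 6.35e-05) and -5.31 ± 1.18 for *GATA23* (adjusted p = 0.00127), the last resting on the 6 reads of the WT at 36 hpg. Without the library that holds them the fit gave -9.48, which is no bound, as the other two held 0 reads. *LBD18* fell by 1.22 (adjusted p = 0.001), *MAKR4* by 1.19 (adjusted p = 0.0094), *LBD33* by 1.30 (adjusted p = 0.0295), and *LBD16* by 0.77 (adjusted p = 0.0037). In *puchi-1*, 4 of the 8 fell, where 33.6% of all genes were called and 15.9% lower: *PUCHI* (-0.58, adjusted p = 0.0201), *GATA23* (-3.37, adjusted p = 0.007), *LBD17* (-1.37, adjusted p = 0.0386), and *LBD18* (-1.26, adjusted p = 0.000677). *LBD16* (-0.28, adjusted p = 0.291), *MAKR4* (0.18, adjusted p = 0.722, 95% interval -0.52 to 0.88), and *LBD29* (0.56, adjusted p = 0.0537) were not called in *puchi-1*. The root hair and Casparian strip sums were lower at 36 than at 12 hpg in every library of both genotypes. Sums of 6 xylem genes were too, at 256 to 297 CPM against 972 to 1350 in the WT and 175 to 348 against 952 to 1120 in *puchi-1*. Phloem sums were instead higher at 36 hpg in both genotypes (142 to 188 CPM against 102 to 131 and 132 to 144 against 98.6 to 110), and photosynthesis sums in the WT. The part of these lists in the declines was not tested.

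The calls of *LBD33* in the WT and of *LBD17* in *puchi-1* were each lost without 5 of their 6 libraries (adjusted p = 0.0526 to 0.109 and 0.0517 to 0.136), the exceptions being WT 12 hpg replicate 3 and *puchi-1* 36 hpg replicate 1. The *MAKR4* call in the WT was lost without 12 hpg replicate 1 (adjusted p = 0.051), and that of *PUCHI* in *puchi-1* without 12 hpg replicate 1 or 3 or 36 hpg replicate 3 (adjusted p = 0.0502 to 0.0743). From 12 to 18 hpg, 0 of the 8 genes were called in the WT (0.116% of all genes, and 1 of 8 at an unadjusted p under 0.05) and 0 in *puchi-1* (0.684%, and 3 of 8), and DESeq2 also called 0 in both. *PUCHI* gave a log2FC of 0.62 in *puchi-1* over this step, with all 18 hpg libraries above all 12 hpg libraries (adjusted p = 0.121).

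Since the paper stages *puchi-1* primordia as delayed at the later time points, each *puchi-1* time point was set against the WT sampled 6 h before it. The comparisons share their libraries with those at equal time, and the values are given side by side. At 18 against 12 hpg, 4 of the 8 genes were called (3.22% of all genes), *PUCHI* and *LBD29* being higher and *LBD16* and *LBD17* lower, and at 24 against 18 hpg 3 were called (1.23%), *PUCHI* and *LBD33* higher and *LBD16* lower. At 30 against 24 hpg (0.784%) and 36 against 30 hpg (0.823%) the 3 called were *LBD16*, which was lower, and *LBD29* and *LBD33*, which were higher. *LBD16* gave a log2FC of -1.09, -0.87, -1.12, and -0.97 in these 4 comparisons, against -0.89, -1.09, -0.85, and -0.44 for the same *puchi-1* libraries at equal time, where the last was not called (adjusted p = 0.419). *LBD17* gave -2.06 at 18 against 12 hpg (adjusted p = 0.0334), a call lost without 5 of the 6 libraries (adjusted p = 0.0861 to 0.114; the exception was WT 12 hpg replicate 3). Without 1 library, 2 to 3, 0 to 1, 1 to 2, and 0 to 2 genes were called in the 4 comparisons.

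Compared with each other per kilobase of exon, *LBD16* (12.4 ± 2.00 RPKM), *PUCHI* (11.6 ± 2.05), and *MAKR4* (7.35 to 12.5 RPKM in its 3 libraries) had the highest levels in WT bends at 12 hpg, and their libraries overlapped. *LBD18* (5.27 ± 0.851), *LBD29* (4.16 ± 1.28), and *LBD17* (3.89 ± 0.847) followed with overlapping libraries, then *GATA23* (2.48 ± 0.405), and *LBD33* (0.867 ± 0.297) was lowest, with no overlap between the last pair. In *puchi-1* at 12 hpg *PUCHI* (15.9 ± 0.903 RPKM) and *MAKR4* (15.5 ± 2.98) led and overlapped, while *GATA23* (7.20 ± 1.20), *LBD16* (6.50 ± 0.892), and *LBD18* (6.29 ± 0.373) overlapped with one another. At 36 hpg in *puchi-1* the order was *MAKR4* (17.5 ± 1.68 RPKM), *PUCHI* (10.6 ± 1.16), *LBD29* (8.03 ± 0.856), *LBD16* (5.35 ± 0.382), *LBD18* (2.62 ± 0.518), *LBD33* (2.55 ± 0.376), *LBD17* (0.946 ± 0.347), and *GATA23* (0.685 ± 0.168). The neighbours in this last order that overlapped were *LBD18* with *LBD33* and *LBD17* with *GATA23*.

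The profiles of the 8 genes over the 36 libraries were compared by Pearson’s r of log2 CPM, as a description, since the libraries share genotypes, time points, and scaling. *LBD29* and *MAKR4* were the most alike of the 28 pairs (r = 0.86, Spearman’s rho = 0.85), followed by *PUCHI* with *LBD29* and with *MAKR4* (r = 0.79 for both) and *PUCHI* with *LBD18* (0.77). *LBD16* stood apart, with r from -0.58 (*LBD33*) to 0.47 (*LBD17*). The neighbours *LBD16* and *LBD17* thus had an r of 0.47, and *LBD17* and *LBD29*, with the aligned promoters, one of 0.04. Without both replicate 1 libraries of the ‘No LR’ segments these values were 0.48 and 0.12, *LBD29* and *MAKR4* had an r of 0.87, and *LBD16* and *LBD33* one of -0.61.

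**Figure D5:**
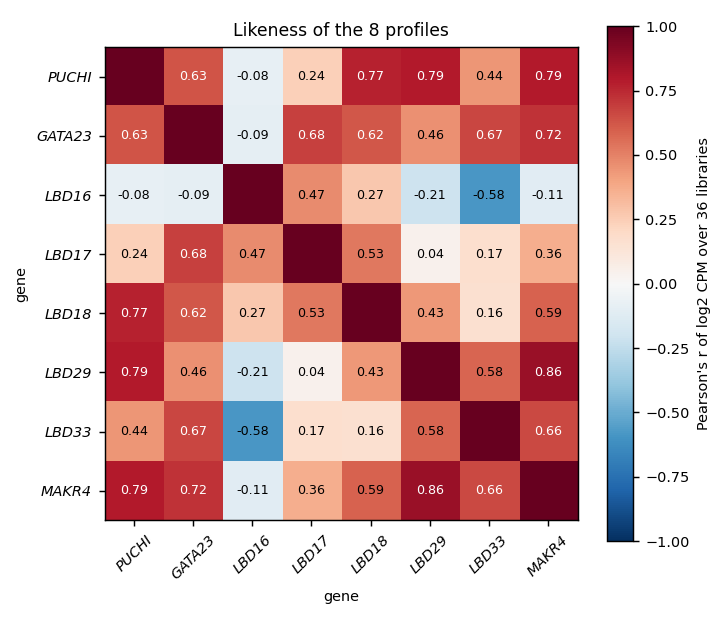
Pearson’s r of log2 CPM over the 36 libraries for each pair of the 8 genes (both axes list the genes, the colour scale runs from -1 to 1). *LBD29* with *MAKR4* is highest at 0.86, and *LBD16* with *LBD33* lowest at -0.58.

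Among 18835 genes compared, the profile most like that of *MAKR4* was *EXPA20*, an expansin gene (r = 0.885 over 36 libraries, 0.966 over the 12 group means), and *LBD29* was second (0.857 and 0.918). For *LBD29* itself, *MAKR4* came first, then AT5G56040 (0.84 and 0.949) and *EXPA20* (0.834 and 0.936). *LBD33* was most like *SADHU3-2*, a retroelement (0.852 and 0.949), *NPY5*, of the family that acts with AGC kinases in auxin-mediated organogenesis (0.841 and 0.909), and *PIN3*, an auxin efflux carrier (0.829 and 0.892). *PUCHI* was most like AT5G67430 (0.82), AT3G32030 (0.819), and AT3G32040 (0.803), and *LBD18* most like AT2G27360 (0.892), AT3G32030 (0.866), and AT5G63930 (0.86). *GATA23* was most like AT1G47860 (0.927), AT4G08690 (0.916), and AT4G26540 (0.901), *LBD16* most like AT1G03010 (0.843), AT1G26190 (0.838), and AT3G57950 (0.837), and *LBD17* most like *TRFL9* (0.899), AT2G02870 (0.895), and *C4H*, of phenylpropanoid synthesis (0.893). Over group means the r of these last 5 genes’ matches ranged from 0.873 to 0.965. Over the 34 libraries without both ‘No LR’ replicate 1 libraries, every gene named here kept a rank of 10 or better. By group means some ranked further down. The matches of *LBD17* ranked 39, 26, and 53 in the order given, AT5G63930 ranked 25 for *LBD18*, and AT1G26190 ranked 20 for *LBD16*.

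Genes acting before and after the 8 were read from short lists. Over the mean of the bends, 10.9% of all genes were called (5.57% higher and 5.32% lower), with a median log2FC of -0.01. Of 11 auxin signalling genes upstream of them, 3 were up-regulated in *puchi-1* over the bends and 8 did not pass, with a median log2FC of 0.15. The 3 were *SHY2*, an Aux/IAA repressor (0.44 ± 0.06, adjusted p = 1.26e-05), *ARF19* (0.22 ± 0.04, adjusted p = 0.000803), and *IAA12*, another repressor (0.18 ± 0.04, adjusted p = 0.00128). Of 11 lateral root genes placed downstream, *LAX3*, an auxin influx carrier (0.54, adjusted p = 0.000299), and *E2FA* (0.17, adjusted p = 0.0356) were up-regulated, and *CRF1*, a cytokinin response factor (-2.53, adjusted p = 4.01e-11), *PLT5* (-1.23, adjusted p = 1.73e-09), and *PLT7* (-0.47, adjusted p = 0.0151), both PLETHORA factors, were down-regulated, with a median of -0.02 over the list. *LEP*, the 1 measured AP2/ERF gene of 3 listed as relatives of *PUCHI*, was up-regulated by 1.05 ± 0.13 (adjusted p = 2.08e-06).

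Other members of the gene families were read in the same way. Of 25 other LBD and ASL genes tested, *LBD26* was up-regulated (2.40 ± 0.24, adjusted p = 8.69e-08; 0.0468 to 0.455 CPM in WT bends and 0.658 to 1.81 in *puchi-1* bends), *LBD11* was down-regulated (-0.91 ± 0.29, adjusted p = 0.0446), and 23 did not pass, with a median log2FC of -0.09. Of 5 other MAKR genes, *MAKR1* was down-regulated (-1.56 ± 0.35, adjusted p = 0.00419) and 4 did not pass. Of 5 relatives of *GATA23*, *GATA16* was up-regulated (0.22 ± 0.07, adjusted p = 0.034) and 4 did not pass. As 10.9% of all genes were called over the mean of the bends, the count of LBD and ASL genes is near the background. The other lists here hold only 5 genes each. These lists were not tested against the other genes.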

How the data were processed

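Root segments of 12 groups were sequenced as stranded mRNA libraries, read as pairs of 100 nucleotides. Per the labels and the paper, the authors mapped reads on TAIR10 by TopHat2 2.1.1 over Bowtie2 2.3.5.1, and counted them per gene on the reverse strand by featureCounts 2.0.0. The treatment of multi-mapped reads is not given in the sources used here. The deposited values are raw counts, with no filter and no normalization. Rows of organellar genes without a locus (87) were kept and took 0.07 to 0.362% of a library.

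Tests were run in edgeR 4.0.16 under R version 4.3.3. Genes needed 15 reads summed over the 36 libraries, which left 25889 genes. Libraries were scaled by TMM, and quasi-likelihood tests came from 1 fit of the 12 groups with 24 residual degrees of freedom (biological coefficient of variation 0.268). Benjamini-Hochberg adjustment covered all genes within each of 19 comparisons, with calls at an adjusted p under 0.05. The study used DESeq2, which was run as an alternative (version 1.42.0). Intervals of 95% use the standard error and the 24 residual degrees of freedom. A self-test of the same fit on simulated data, run after the fit of the real data, was passed. Log2 CPM had a prior count of 2. RPKM is CPM per kilobase of annotated exon. Replicates of a group differed by 25.1 to 350 in chi-square per gene, which is beyond sampling noise of the reads. This value cannot tell separate plant samples from separate libraries of 1 sample. Each library was counted as 1 sample because the paper calls them biological replicates.

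The other settings were size factors of DESeq2 in edgeR, no filter, filterByExpr, a replicate block, the month in the sample title as a covariate, the bends alone, the compared groups alone, both ‘No LR’ replicate 1 libraries left out, and each library left out in turn. The month was taken without its year. Some titles name no month, and those libraries shared a single level of the covariate. Deviations of same-numbered libraries of the 2 genotypes from their group means had correlations of -0.38 to 0.66. At 18 hpg the titles name the same month for the same number (March, June, and July), and the correlations were 0.35, 0.10, and 0.37. This gives a pairing by month, although the named days differ for March and June. The 18 hpg libraries were therefore also fitted alone with a replicate block. That fit, the sum of *puchi-1* ‘No LR’ replicates 2 and 3, and profiles without the replicate 1 pair were added after seeing the data.

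The 8 genes and the gene lists were chosen with earlier results of these data known. Genes named from a list are those called over the mean of the 5 bend time points, at most 6 of lowest p, and genes most like each of the 8 are the 3 of highest Pearson’s r among genes with a mean log2 CPM of at least 0. Sequences were read from the TAIR10.1 genome of RefSeq, the build named in the paper. Alignments used Biopython (version 1.88), with 1 for a match, -1 for a mismatch, -2 to open and -1 to extend a gap, and near copies were sought with blastn (version 2.17.0).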

Additional observations from a re-analysis of the deposited data

How the results depend on the processing

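Of the 49 calls of the 8 genes over the 19 comparisons, 24 held without each library in turn and 34 held in every other setting. All 6 calls over the mean of the 5 bend time points did both, and 6 to 7 genes were called there without 1 library. The replicate block over all groups moved the count at 24 hpg from 2 to 5 genes and no other count by more than 1.5 times. At 30 hpg the titles name June for number 1 and July for number 2 in both genotypes, though on different days. For number 3 they name July in the WT and August in *puchi-1*. The same-number correlations at 30 hpg were 0.22, 0.22, and 0.03, and no fit of that time point alone with a block was run. At the bend time points other than 18 and 30 hpg the titles give no pairing by number. In ‘No LR’ segments both genotypes name August for numbers 2 and 3 and no month for number 1. The same-number correlations there were 0.66, -0.13, and 0.55, and no fit of those segments alone with a block was run. Of all 36 libraries, 18 correlated best with their own number in the other genotype, which does not settle the pairing. In the block fit of the 18 hpg libraries alone, 5 genes were called, and with *puchi-1* ‘No LR’ replicates 2 and 3 summed 0 were called between genotypes in those segments.

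In the fit of the bends alone, the genotype comparison gave 1 gene at 12 hpg, 6 at 24 hpg, 5 at 30 hpg, and 6 at 36 hpg, the comparisons with the WT 6 h earlier gave 7, 5, and 5 genes (18, 24, and 30 hpg of *puchi-1*), the step from 12 to 18 hpg in *puchi-1* gave 2, and the F test and the change from 12 to 36 hpg gave 1 each. DESeq2 gave 1 gene at 12 hpg and 5 at 24 hpg. The month covariate gave 4 genes in ‘No LR’ segments, 1 at 12 hpg, 5 at 30 hpg, 5 for *puchi-1* 24 hpg against WT 18 hpg, and 7 for WT 12 hpg against ‘No LR’. The compared groups alone gave 0 in ‘No LR’ segments, 1 at 18 hpg, 0 for 12 hpg against ‘No LR’ in each genotype, 3 for 18 against 12 hpg in *puchi-1*, and 1 for the F test. Without both ‘No LR’ replicate 1 libraries, 0 genes were called between genotypes in those segments, 7 for 12 hpg against ‘No LR’ in the WT, and 5 in *puchi-1*. The cause of these shifts was not tested.

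Without 1 library, the genotype counts ranged from 0 to 4 in ‘No LR’ segments, 1 to 2 at 18 hpg, 1 to 3 at 24 hpg, 0 to 1 at 30 hpg, and 2 to 3 at 36 hpg. They ranged from 2 to 3, 0 to 1, 1 to 2, and 0 to 2 against the WT 6 h earlier, from 2 to 7 (WT) and 2 to 5 (*puchi-1*) for 12 hpg against ‘No LR’, and from 5 to 7 (WT) and 2 to 4 (*puchi-1*) for 36 against 12 hpg. The direction of *LBD17* at 30 hpg, which was not called, turned to -0.12 without WT replicate 1 and -0.13 without *puchi-1* replicate 2, in a range from -0.13 to 0.4 without 1 library. Group means of the 8 genes moved by a factor of 0.986 to 1.02 between TMM and DESeq2 size factors. Depth limits *GATA23* most, with 0 reads in 2 libraries.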
